A study of Mus musculus with 6 samples.

Results

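Foxp3 and 7 genes whose protein products mark regulatory or anergic CD4 T cells on the surface (Nrp1, Izumo1r, Nt5e, Entpd1, Lrrc32, Itgb8 and Gpr83) were followed across 6 expression arrays of T cells from heart transplant recipients. A member was any array probe whose RefSeq transcript maps to one of these 8 genes, whatever its signal. The rule found 12 probes, all of them usable, among 55371 usable probes that carry 44781 gene names. All 8 genes had a probe well above background on both arrays of at least 1 group, and 3 of them (Nrp1, Izumo1r and Gpr83) had a mean log2 intensity of at least 8 over the 6 arrays.

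The cells were TEa T cells of C57BL/6 background, CD4+ cells with a transgenic receptor that is detected as Vα2+Vβ6+ and recognises donor antigen. WT or Irf4-/- TEa cells carrying CD45.2 were given to CD45.1+ B6.SJL mice on day -1, a Balb/c heart was transplanted on day 0, and the TEa cells were sorted back from the spleen on day 6. The WT group is labelled as treated with rat IgG, with no dose stated. The Irf4 KO IgG group received 400 µg of rat IgG on days 0, 3 and 5. The Irf4 KO blockade group received on those days 200 µg of an antibody to PD-L1 plus 200 µg of the CTLA-4 antibody 9D9, which block receptors or ligands that restrain T cells. Each group had 2 arrays, described as independent experiments and numbered 1 and 2, and there were no WT cells with blockade, so genotype and blockade cannot be crossed. The sources used here do not say which part of Irf4 is deleted or in which cells, and no depletion of the recipients' own T cells is described.

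Foxp3 is the transcription factor that defines regulatory T cells. Neuropilin 1 (Nrp1) is a co-receptor for semaphorins and VEGF and is found on thymus-derived regulatory T cells. Folate receptor 4 (Izumo1r) is found on regulatory and anergic CD4 T cells, and together with CD73 (Nt5e) it is used to identify anergic cells that lack Foxp3. CD39 (Entpd1) breaks down extracellular ATP and ADP to AMP, and CD73 turns AMP into adenosine. GARP (Lrrc32) holds latent TGF-beta on the cell surface, and integrin beta 8 (Itgb8) pairs with the alpha v chain to release the active cytokine. Gpr83 is a G protein-coupled receptor enriched in regulatory T cells. The question put to the data was whether the surface genes were higher in Irf4 KO cells without a like rise of Foxp3, and whether they came back towards WT with blockade.

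The 250 bases before the annotated start are shown for the 3 genes bright enough for the stricter test, from RefSeq promoters of build GRCm38.p6, read 5′ to 3′ on the gene's strand with each CpG in capitals. Nrp1 lies at chr8:128358823-128359072 on the plus strand, Gpr83 at chr9:14859960-14860209 on the plus strand and Izumo1r at chr9:14903768-14904017 on the minus strand.
Nrp1: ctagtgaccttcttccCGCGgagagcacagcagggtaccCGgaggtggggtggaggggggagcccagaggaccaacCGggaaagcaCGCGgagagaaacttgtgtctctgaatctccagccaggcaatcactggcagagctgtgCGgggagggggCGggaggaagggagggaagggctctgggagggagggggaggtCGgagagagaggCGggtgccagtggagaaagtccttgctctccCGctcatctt
Gpr83: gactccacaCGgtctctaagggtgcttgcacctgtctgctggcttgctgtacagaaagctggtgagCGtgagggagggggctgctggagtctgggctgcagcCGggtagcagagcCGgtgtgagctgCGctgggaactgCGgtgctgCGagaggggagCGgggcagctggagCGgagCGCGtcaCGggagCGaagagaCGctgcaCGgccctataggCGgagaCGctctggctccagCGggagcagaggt
Izumo1r: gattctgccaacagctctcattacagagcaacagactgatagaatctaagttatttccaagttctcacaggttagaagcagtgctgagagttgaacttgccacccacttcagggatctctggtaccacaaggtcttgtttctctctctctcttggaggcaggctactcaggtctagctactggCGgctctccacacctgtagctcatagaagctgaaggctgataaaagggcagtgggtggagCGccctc
The Nrp1 window was 64.4% G or C with 11 CpG, that of Gpr83 66.8% with 18 and that of Izumo1r 50% with 2, where the median over 32851 promoters was 52.4% with 6. Gpr83 and Izumo1r are neighbours on chromosome 9 with 0 annotated genes between them. Sequences were matched for 7 of the 8 genes, with 9 promoters in all, and Lrrc32 was not matched. Spelled-out motifs were looked for on both strands of the 9 windows: GAAA followed by GAAA after a gap of 2 bases, the paired element of interferon regulatory factors (IRF), TGANTCA for AP-1, GTAAACA for forkhead factors, and TGANTCA followed by GAAA after a gap of 4 bases for an AP-1 site beside an IRF element, which holds the AP-1 motif within it. These were present in 2.977%, 6.749%, 3.166% and 0.097% of all promoters of that length and in 0 of the 9.

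Intensities are the scanner's background-subtracted values, which differ in overall brightness between arrays. On the WT and blockade arrays 34.8% to 40.8% of probes exceeded background clearly, against 65.8% and 75.2% for Irf4 KO IgG, so weak probes in general were brighter there. All 12 member probes had their highest unscaled intensity on Irf4 KO IgG array 2, as did 65.1% of all probes. For this reason 2 fits were used. The bright-gene fit covers 8582 genes with a mean log2 of at least 8, quantile-normalised. The all-gene fit covers 28244 genes scaled to each array's 75th percentile, where genes below a mean log2 of 8 had a median log2 difference of 1.35 between Irf4 KO IgG and WT and the bright genes one of -1.05. Between Irf4 KO blockade and WT these medians were 0.11 and 0.05. Adjusted p-values are from limma with Benjamini-Hochberg adjustment over every gene of a fit, and a gene passed below 0.05.

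All 12 listed CD4 T cell markers were well above background on both arrays of every group. Of 11 measured B cell markers this held for 2 in WT, 10 in the Irf4 KO IgG group and 2 after blockade. For monocytes, macrophages and neutrophils it was 6, 9 and 7 of 11, for dendritic cells 2, 8 and 2 of 11, for erythroid cells and platelets 2, 7 and 6 of 10, and for endothelial and stromal cells 2, 5 and 2 of 10. Of 8 CD8 T and NK cell markers it was 3, 6 and 3. Irf4 itself had 2 probes, and both were brighter in each KO-labelled array than in WT; the stronger one read 673 and 1068 in WT, 2128 and 3073 in Irf4 KO IgG and 2071 and 1703 in blockade. Where these probes lie relative to the deletion is not given in the sources used here, so they do not check the genotype, and every direction below rests on the arrays' labels.

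Foxp3 was weak throughout, and in bulk RNA fewer Foxp3+ cells and less Foxp3 RNA per cell cannot be told apart. Its single probe read 16.0 and 21.9 with WT cells, 41.9 and 185 with Irf4 KO IgG cells, and 35.4 and 30.0 after blockade. It was not well above background on WT array 1 and was so on the other 5 arrays. All 4 KO arrays lay above both WT arrays before scaling, which held for 3.60% of the genes in the all-gene fit, but the Irf4 KO IgG arrays were far apart. The log2 difference between Irf4 KO IgG and WT was 1.03 (SE 0.50, 95% interval -0.25 to 2.32, limma adjusted p = 0.131) and did not pass. It lay below the median of 1.35 for genes of such brightness, and it turned to -0.63 when arrays were scaled on their median and to -0.037 after normexp background correction. On the WT and blockade arrays that array median was 5.17 to 9.08, under the lowest detected intensity (15.2 to 20.2). On Irf4 KO IgG it was 46.5 and 76.6, so on the other arrays that scale rests on signal near background. Between blockade and WT the Foxp3 difference was 1.15 (limma adjusted p = 0.695), where 0 of 28244 genes passed by limma (0%) and 7.65% had an unadjusted p under 0.05. From Irf4 KO IgG to blockade the difference was 0.12 (interval -1.17 to 1.41, adjusted p = 0.847), with the sign turned in 5 of 16 other settings. The intervals are wide, so a Foxp3 difference of either sign remained within the error.

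**Figure D1:**
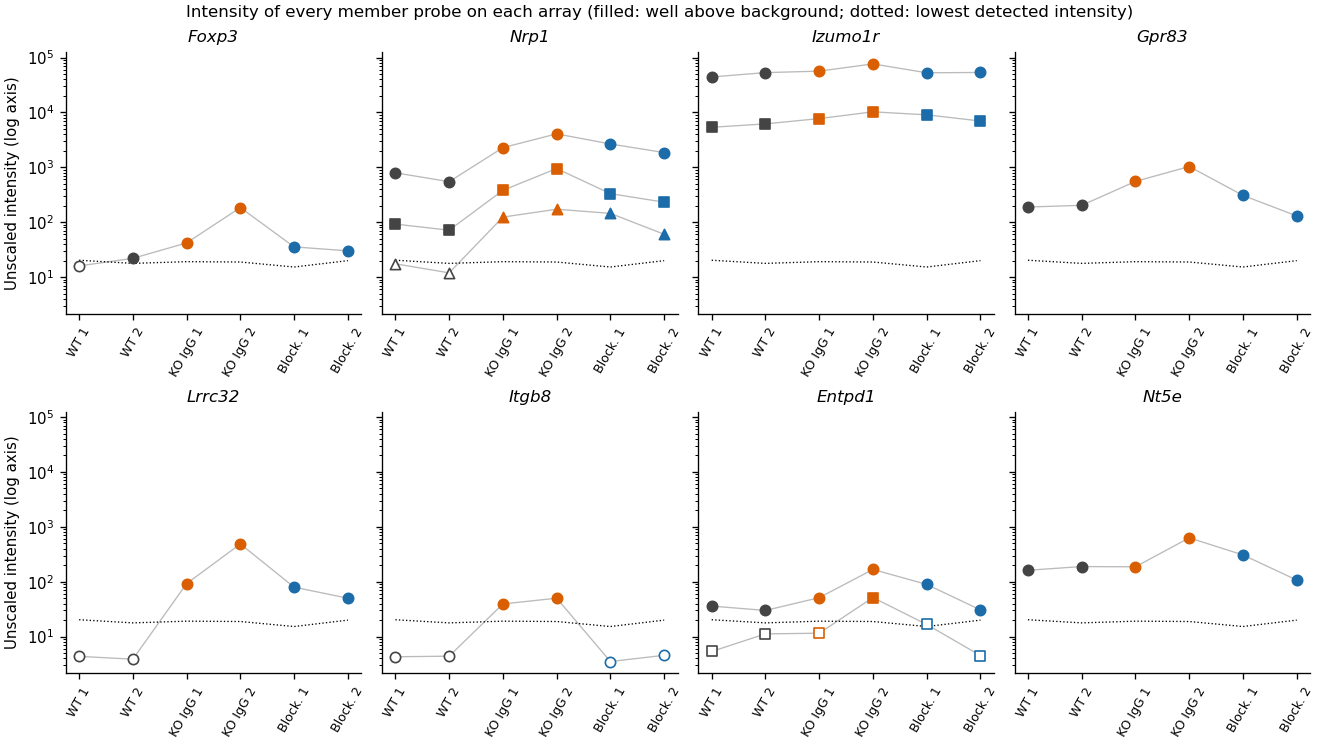
Unscaled intensity (log axis) of every probe of the 8 genes on the 6 arrays, with a panel per gene, a symbol shape per probe, filled symbols where the probe was well above background and a dotted line at the lowest intensity called so. Nrp1 is higher on all 4 KO arrays in each of its 3 probes, Itgb8 is filled only on the Irf4 KO IgG arrays, and Foxp3 stays below 50 except for 185 on Irf4 KO IgG array 2.

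Nrp1 was the only member of 3 tested among bright genes that passed between Irf4 KO IgG and WT, with Gpr83 (limma adjusted p = 0.0534) and Izumo1r (0.0663) just missing the threshold of 0.05. Its brightest probe read 794 and 547 in WT, 2284 and 4075 in Irf4 KO IgG and 2667 and 1858 in blockade. A second probe gave 92.3 and 71.4 in the WT pair, 381 and 949 in the Irf4 KO IgG pair and 331 and 231 in the blockade pair. The third gave 17.4 and 11.9, 124 and 172, and 145 and 60.2 for those groups, and was not well above background on either WT array. In each of the 3 probes every KO array was brighter than both WT arrays.

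On the quantile-normalised scale Nrp1 had a log2 level of 9.35 ± 0.69 (SD, n = 2) in WT, 11.41 ± 0.13 (n = 2) in Irf4 KO IgG and 11.36 ± 0.13 (n = 2) in blockade. It was 2.06 higher in Irf4 KO IgG than in WT (SE 0.32, 95% interval 1.27 to 2.84, limma adjusted p = 0.0471), a 4.16-fold difference that ranked 36 of 8582 genes by size. Nrp1 was thus 1 of 3 members tested that passed in that fit, where 1.86% of all genes passed and 1.14% passed as higher. The call is marginal: leaving out WT array 1 kept it (adjusted p = 0.0466), and leaving out WT array 2 (0.0739), Irf4 KO IgG array 1 (0.0987), Irf4 KO IgG array 2 (0.0916), blockade array 1 (0.129) or blockade array 2 (0.126) ended it, as did a replicate block (0.0723), the slide row as a block (0.0717) and a fit of only the 4 arrays compared (0.127), while the value stayed between 1.56 and 2.53. Among all genes the same probe was 1.01 higher (limma adjusted p = 0.0649), and -0.66 with the array median, a scale near background in WT as given above. The 2 weaker probes, fitted there on their own among 34983 probes, were 1.69 (adjusted p = 0.0178) and 2.14 (adjusted p = 0.0151) higher, where 56.3% of probes passed. Since WT gave no signal well above background for the weakest probe, its difference is given as a bound, with the WT mean taken at the lowest detected intensity of each array. On the 75th percentile scale it was at least 3.35-fold for Irf4 KO IgG and at least 6.28-fold for blockade, and on the scale of probes detected on all 6 arrays at least 5.56-fold and 6.15-fold.

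Blockade left Nrp1 near its Irf4 KO IgG level. The log2 difference between blockade and Irf4 KO IgG was -0.04 (SE 0.32, 95% interval -0.83 to 0.74, limma adjusted p = 0.935), so changes of either sign within that interval could not be told from none with 2 arrays a group. Among all genes, where the bright ones had a median of 1.09 in that comparison, its value was 1.097 (adjusted p = 0.0517). Against WT, Nrp1 was 2.01 higher in blockade (interval 1.23 to 2.80, unadjusted p = 8.67e-04, adjusted p = 0.0626) and missed the threshold that 1.11% of genes passed, 0.629% as higher. It passed there with cyclic loess normalisation, with scaling on the bright-gene median and without WT array 1, the array on which WT Nrp1 was the higher of the pair. Of 10 markers of endothelial and stromal cells, which can also carry Nrp1, 2 were well above background on both arrays in the WT group, 5 in Irf4 KO IgG and 2 in blockade, with a summed scaled intensity of 230.4 to 1810 in WT, 589 to 770.2 in Irf4 KO IgG and 341 to 409 in blockade. Among them Cdh5 and Kdr were not well above background on any array, Pecam1 and Egfl7 were so on all 6, and Vwf was so on both Irf4 KO IgG arrays. Dcn alone read 1401 before scaling on WT array 1, the array with the higher WT sum. The Egfl7 unscaled intensity was 37.6 and 92.9 in WT, 73.0 and 267 in Irf4 KO IgG and 178 and 105 in blockade. Of 11 dendritic cell markers 2, 8 and 2 were well above background on both arrays in the 3 groups in that order. As given above, weak probes in general were detected more often in Irf4 KO IgG. The part of these cells in the Nrp1 values was not tested.

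**Figure D2:**
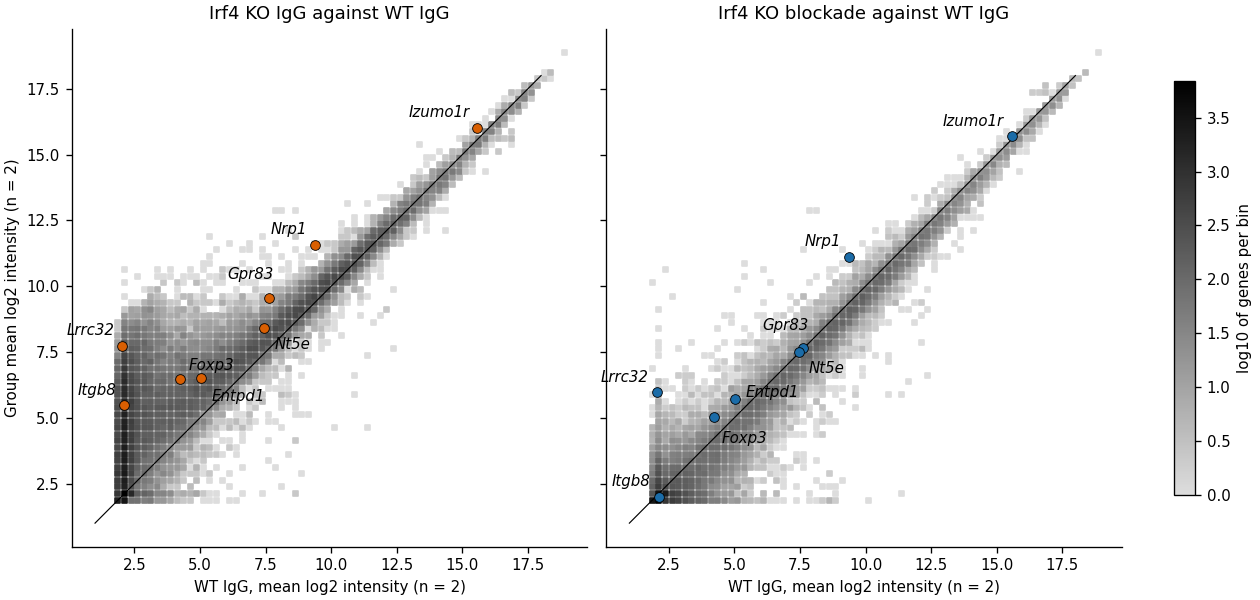
Mean log2 intensity before scaling of each gene's brightest probe in Irf4 KO IgG (left) and Irf4 KO blockade (right) against WT (n = 2 arrays each), with grey squares for the number of genes per bin on a log10 scale, the line of equality and the 8 members named. Weak genes lie above the line on the left and around it on the right, where Nrp1 and Lrrc32 stand above the line and the other members lie closer to it.

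Izumo1r gave a strong signal in all 3 groups. The probe for one of its transcripts read 44388 and 53316 in WT, 56698 and 76807 in Irf4 KO IgG and 52921 and 53620.2 in blockade. Its second probe gave 5367 and 6198 in the WT pair, 7735 and 10269 in the Irf4 KO IgG pair and 9062 and 6987 in the blockade pair. Irf4 KO IgG arrays were above WT arrays in both probes, and blockade arrays were above WT in the second probe and overlapped it in the first. The quantile-normalised log2 level was 15.44 on both WT arrays, since the probe held the same rank on them, 16.07 ± 0.06 (SD, n = 2) in Irf4 KO IgG and 15.77 ± 0.13 (n = 2) in blockade. The difference between Irf4 KO IgG and WT of 0.62 (SE 0.12, 95% interval 0.33 to 0.92, limma adjusted p = 0.0663) did not pass, nor did those between blockade and WT (0.33, adjusted p = 0.227) and between blockade and Irf4 KO IgG (-0.30, interval -0.59 to 0.00, adjusted p = 0.177), the last of which turned to 0.23 with scaling on the bright-gene median. The second probe, fitted on its own among 10225 bright probes, gave 0.67 (limma adjusted p = 0.0788), 0.73 (0.0872) and 0.06 (0.816) in that order. The lower value after blockade than in Irf4 KO IgG was thus seen in the first probe only.

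Among all genes Izumo1r was -0.76 in Irf4 KO IgG against WT (adjusted p = 0.0662) and 1.24 in blockade against Irf4 KO IgG (adjusted p = 0.0176). The second of these passed, as did 58.8% of genes (27.9% as higher), and both signs are opposite to those of the bright-gene fit. The bright genes as a whole had medians of -1.05 and 1.09 there, so the direction of Izumo1r between these groups depends on the scale. The call was lost in 7 of 17 other settings.

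Gpr83, the neighbour of Izumo1r, had its highest values in the IgG-treated KO group alone. Its single probe read 189 and 203 in WT, 553 and 1035 in Irf4 KO IgG and 308 and 130.01 in blockade. The Irf4 KO IgG arrays were above the other 4, and the blockade arrays lay on either side of WT. Its log2 level was 7.69 ± 0.20 (SD, n = 2) in WT, 9.25 ± 0.22 (n = 2) in Irf4 KO IgG and 8.06 ± 0.49 (n = 2) in blockade. Irf4 KO IgG exceeded WT by 1.55 (SE 0.26, 95% interval 0.90 to 2.20, limma adjusted p = 0.0534), which narrowly missed the threshold; it passed with scaling on the bright-gene median and when every bright probe was kept as a row of its own (adjusted p = 0.0493). Blockade against Irf4 KO IgG was -1.19 (interval -1.83 to -0.54, adjusted p = 0.0768), also not passed, where 0.326% of genes passed and 0.14% passed as lower. Blockade against WT was 0.36 (interval -0.28 to 1.01, adjusted p = 0.508). B cell markers were highest on the same arrays, with a summed scaled intensity of 1163 to 3864 in Irf4 KO IgG, 201 to 263 in WT and 427 to 566 in blockade, and their part in the Gpr83 values was not tested.

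Lrrc32 was not well above background on either WT array and was so on all 4 KO arrays. Its probe read 4.35 and 3.86 in WT, 92.2 and 487 in Irf4 KO IgG and 79.4 and 49.98 in blockade. Of the 31517 probes below that call in WT on each array, 38.3% exceeded it in the Irf4 KO IgG pair, 0.517% in the blockade pair and 0.422% in all 4. Lrrc32 and the weakest Nrp1 probe were in the last group. On the 75th percentile scale the Lrrc32 signal was at least 4.86-fold higher in Irf4 KO IgG than in WT and at least 4.24-fold higher in blockade. These bounds were not tested. The limma p-values belong to fitted log2 differences that use the undetected WT readings. These were 4.49 for Irf4 KO IgG (adjusted p = 0.00747) and 4.29 for blockade (adjusted p = 0.233, unadjusted p = 7.86e-04). On the scale of probes detected on all 6 arrays the bounds were 8.07-fold and 4.15-fold. Of all genes fitted 58.9% passed between Irf4 KO IgG and WT and 31.5% passed as higher, 45.1% among genes below a mean log2 of 8. Lrrc32 entered that fit only through the KO arrays, which favours a call as higher. Normexp correction, which adds an offset to every intensity, lowered the fitted log2 differences to 1.23 and 1.09 and ended the call (adjusted p = 0.0544). Between blockade and Irf4 KO IgG the difference was -0.20 (interval -1.74 to 1.35, adjusted p = 0.790), and it turned to 1.59 with scaling on the array median and to 0.65 without Irf4 KO IgG array 2.

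Lrrc32 is also a gene of platelets, and several platelet genes moved with it. Pf4 read 4.56 and 4.29 in WT, 21.4 and 136 in Irf4 KO IgG and 52.7 and 37.4 in blockade. Ppbp gave 4.03 and 3.69 in the WT pair, 9.55 and 54.6 in the Irf4 KO IgG pair and 43.0 and 24.5 in the blockade pair. Treml1 gave 5.04 and 14.7, 41.6 and 327, and 23.3 and 29.8 for those groups. Itga2b, the alpha chain of the platelet fibrinogen receptor, read 85.9 and 184 in Irf4 KO IgG but 3.26 and 4.24 in blockade, and Gp9 was not well above background on the WT or blockade arrays. Of the 10 erythroid and platelet markers 2, 7 and 6 were well above background on both arrays of WT, Irf4 KO IgG and blockade, with a summed scaled intensity of 236 to 657, 1695 to 37609 and 9714 to 12240. The 2 in WT were the haemoglobin genes Hba-a1 and Hbb-bt, and Hba-a1 was the brightest of the 10 on every array. Before scaling it read 127 and 612 in WT, 1152 and 44583 in Irf4 KO IgG and 9121 and 5672 in blockade. The sums therefore follow haemoglobin rather than the platelet genes. The part of platelets and erythroid cells in the Lrrc32 values was not tested.

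Itgb8 was seen only in the IgG-treated KO group. Its probe read 4.28 and 4.38 in WT, 39.2 and 50.002 in Irf4 KO IgG and 3.50 and 4.54 in blockade, and was well above background on the Irf4 KO IgG arrays alone. In the all-gene fit it was called higher in Irf4 KO IgG than in WT (limma adjusted p = 0.0111). It was called lower in blockade than in Irf4 KO IgG (limma adjusted p = 0.0129), where 30.9% of genes were called lower, 44.3% among those below a mean log2 of 8. Itgb8 entered that fit only through the Irf4 KO IgG arrays, the group where it was high. The filter thus favoured both directions, and the calls are no independent support for them. The size is bounded at only 1.02-fold against WT, no bound above 1 was had against blockade, and on the scale of probes detected on all 6 arrays the bounds were 1.69-fold and 1.47-fold. Both calls were lost with scaling on the array median (0.49 and -0.13), normexp turned both signs (-0.12 and 0.29), and leaving out WT array 2 or Irf4 KO IgG array 1 ended the first and the second, respectively (adjusted p = 0.0532 and 0.0563). A probe dim in WT and detected on both Irf4 KO IgG arrays was common, as given above, and such detection was measured on the group whose weak probes were brighter in general.

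**Figure D3:**
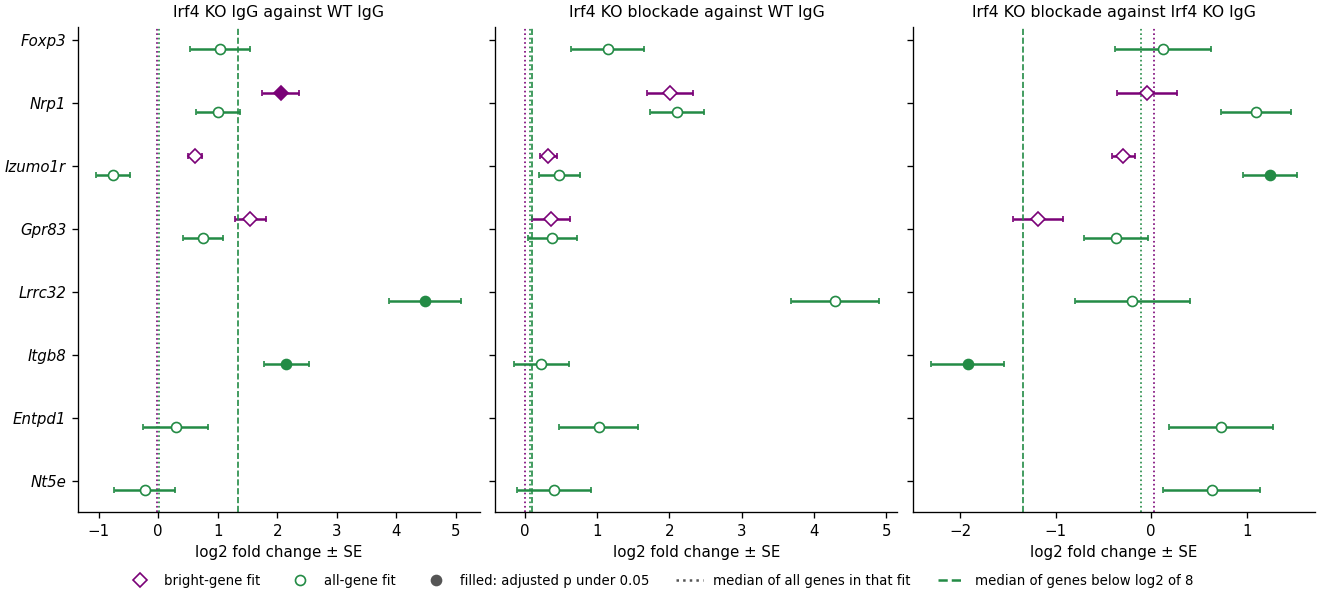
Fitted log2 fold change ± SE of the 8 members in the 3 comparisons (n = 2 arrays per group), with diamonds for the bright-gene fit, circles for the all-gene fit, filled symbols for an adjusted p under 0.05, dotted lines at the median of all genes of each fit and a dashed line at the median of genes below a mean log2 of 8. Nrp1 is the 1 filled diamond, and the fitted values of Lrrc32 and Itgb8 use intensities below background in WT (and for Itgb8 in blockade), so they are not sizes.

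The ectoenzymes of the adenosine pathway passed in none of the 3 comparisons as reported. The brighter Entpd1 probe read 35.9 and 29.9 in WT, 51.1 and 167 in Irf4 KO IgG and 89.2 and 30.6 in blockade. Its second probe was well above background only on Irf4 KO IgG array 2, at 51.4. Nt5e read 162 and 189 in WT, 187 and 629.6 in Irf4 KO IgG and 307 and 107 in blockade. In both genes 1 array of each KO group was well above WT and the other lay closer to it.

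The log2 difference of Entpd1 was 0.29 between Irf4 KO IgG and WT (interval -1.10 to 1.69, limma adjusted p = 0.665), 1.02 between blockade and WT (adjusted p = 0.786) and 0.73 between blockade and Irf4 KO IgG (adjusted p = 0.291). For Nt5e these were -0.23 (interval -1.53 to 1.08, adjusted p = 0.722), 0.41 (adjusted p = 0.940) and 0.63 (adjusted p = 0.322). The sign of Entpd1 between Irf4 KO IgG and WT turned in 4 of 17 other settings, and that of Nt5e in 4 of 17. Irf4 KO IgG array 2 and blockade array 1, the brighter array of each pair for both genes, share a slide row with WT array 2. WT array 2 was the dimmer of its pair for Entpd1 before scaling and the brighter for Nt5e. On the 75th percentile scale it was the lower for both. The log2 level there was -2.00 against -1.30 on WT array 1 for Entpd1, and 0.66 against 0.87 for Nt5e. Neither gene passed when the row was blocked. Since neither passed without that block, this says nothing about the row, whose part in these values was not tested.

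Set side by side, the surface genes did not move as a block. Nrp1 and Lrrc32 were above both WT arrays on all 4 KO arrays before scaling, as Foxp3 also was, and the other 5 members were not in their brightest probe. In the bright-gene fit 3 of 3 members had Irf4 KO IgG arrays wholly above WT, where 23.1% of genes did, and 2 of 3 had blockade arrays wholly above WT, where 27.7% did. By limma 0 of 3 passed there between blockade and WT and 0 of 3 between blockade and Irf4 KO IgG, with 2 and 1 at an unadjusted p under 0.05, as had 19.2% and 28.5% of bright genes. In the all-gene fit 2 of 8 members, Lrrc32 and Itgb8, passed between Irf4 KO IgG and WT, both higher, where 31.5% of all genes and 45.1% of those below a mean log2 of 8 did so. Both entered that fit only through KO arrays, with WT readings not well above background, so the filter favoured that direction. The median log2 difference over the 8 was 0.88, against 0.01 for all genes and 1.35 for the weak ones, to which 5 of the 8 belong. Between blockade and Irf4 KO IgG 1 passed as higher (Izumo1r) and 1 as lower (Itgb8, which that filter also favoured), where 27.9% and 30.9% of genes did. The median there was 0.38 against -0.11 for all genes and -1.34 for the weak ones. Between blockade and WT 0 passed by limma, with 2 of 8 at an unadjusted p under 0.05 and a median of 0.75 against 0.08. Foxp3 passed in none of these, but its all-gene interval between Irf4 KO IgG and WT includes the Nrp1 value of that fit (1.01). The Nrp1 value of 2.06 among bright genes is on another scale, on which Foxp3 was too weak to be tested. A rise of the surface genes without Foxp3 was therefore not shown by a test. The comparisons share the WT or the Irf4 KO IgG arrays and are not independent of each other.

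**Figure D4:**
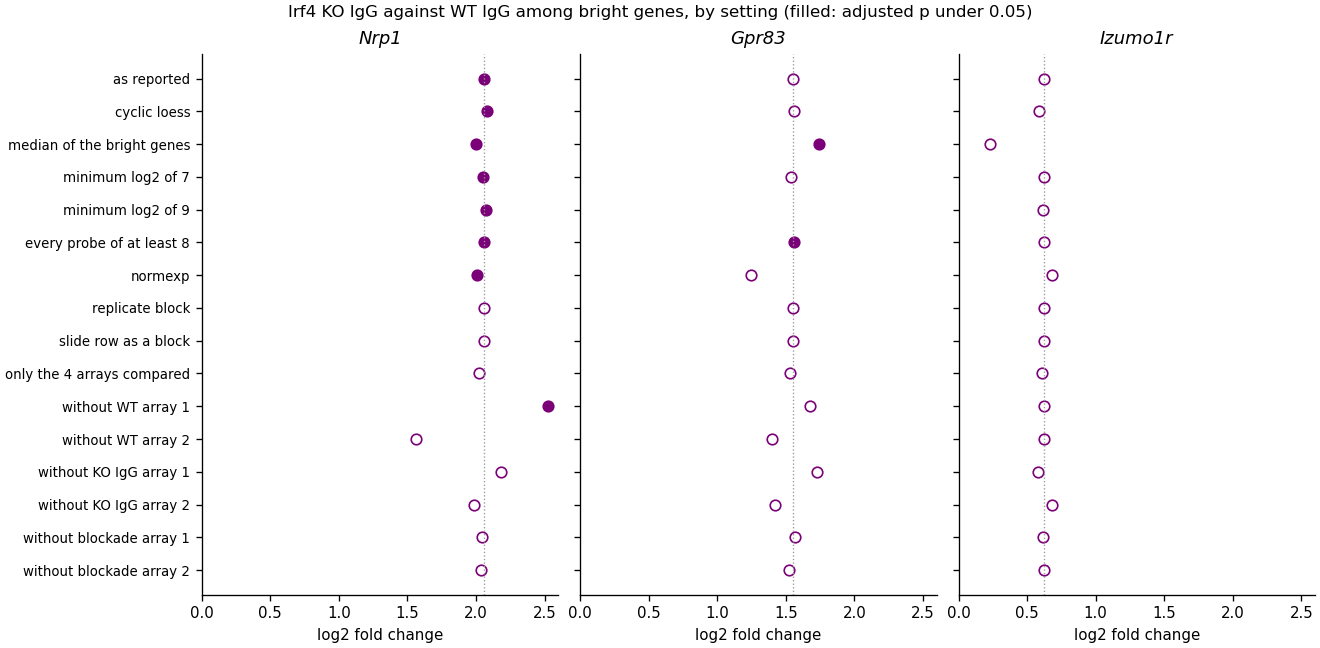
Log2 fold change of Irf4 KO IgG over WT for the 3 bright members (a panel each) as reported and under each other setting of the bright-gene fit, filled where the adjusted p was under 0.05, with a dotted line at the reported value. Nrp1 stays between 1.56 and 2.53 with filled and open points, Gpr83 between 1.25 and 1.74 and Izumo1r between 0.23 and 0.68.

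Other genes of the same pathways were compared from fixed lists. Of 22 further regulatory T cell genes 11 could be tested among bright genes. Ikzf2, which encodes Helios, was higher in Irf4 KO IgG than in WT by 2.18 (limma adjusted p = 0.0231) and in blockade by 2.35 (adjusted p = 0.0223); it read 113 and 147 in WT, 659 and 1040.5 in Irf4 KO IgG and 534 and 683 in blockade. Tnfrsf9, the costimulatory receptor 4-1BB, was 2.80 higher in Irf4 KO IgG (adjusted p = 0.0408). Icos, a costimulatory receptor, was lower in both KO groups, by a log2 difference of -1.18 in Irf4 KO IgG (adjusted p = 0.0322) and of -1.21 in blockade (adjusted p = 0.0383). Between Irf4 KO IgG and WT 2 of 11 were higher and 1 lower in all, where 1.14% of bright genes passed as higher and 0.722% as lower. The list median was 0.77 where the median of all bright genes was -0.02.

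Among 20 anergy genes 13 could be tested, and 1, the nuclear factor Tox, was higher in Irf4 KO IgG than in WT (1.101, limma adjusted p = 0.029). There 1.14% of bright genes passed as higher, and the list median was 0.31. Of 22 adenosine and ATP genes 10 could be tested, and 1, the ATP-gated channel P2rx7, was lower (-1.25, adjusted p = 0.0214), where 0.722% of bright genes passed as lower. The median of this list was -0.10. In the TGF-beta list 0 of 11 passed by limma in that comparison, where 1.86% of bright genes did. At an unadjusted p under 0.05 were 2 of 11 (median 0.08), as were 23.4% of bright genes. The receptor Tgfbr2 was lower in blockade than in WT (-0.84, adjusted p = 0.0486), where 0.478% of bright genes passed as lower. In the neuropilin list 0 of 4 passed by limma, with 1 at an unadjusted p under 0.05 (median 0.21). In a list of folate receptor, Izumo-named and peptide precursor genes 2 of 7 could be tested. Of these Penk, the enkephalin precursor, was higher than in WT in Irf4 KO IgG (4.68, limma adjusted p = 0.0164) and in blockade (4.91, adjusted p = 0.016). In these comparisons 1.14% and 0.629% of bright genes passed as higher. Between blockade and Irf4 KO IgG 0 bright genes of these lists passed by limma, where 0.326% of all bright genes did. In the order given, 0 of 11, 4 of 13, 4 of 10, 5 of 11, 2 of 4 and 0 of 2 had an unadjusted p under 0.05, as had 28.5% of all bright genes.

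The genes whose centred profile over the 6 arrays was closest to Nrp1 among 8581 other bright genes were Itm2a (root mean square log2 difference 0.22), Lrig1 (0.27), Oasl1 (0.27), H2-Ob (0.27) and Lypd6b (0.30). For Gpr83 they were Pik3ip1 (0.22), Nle1 (0.23), Dusp2 (0.24), Zfp746 (0.25) and Bcl2 (0.28). For Izumo1r they were Pheta1 (0.059), Serp1 (0.060), Nfkb2 (0.063), Urgcp (0.065) and Zfp213 (0.067), but 18.6% of bright genes lay within 0.25 of it, so that likeness singles out little. These are descriptions over 6 arrays that share the normalisation.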

How the data were processed

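RNA of sorted TEa cells was measured on 6 one-colour arrays, 2 per group. Cy3-labelled cRNA was made from 0.5 µg of RNA by linear amplification, per the labels' protocols. The deposited scanner files hold the processed signal, a linear intensity that is background-subtracted and not scaled between arrays, from Agilent Feature Extraction 11.0.1.1 per the file headers (9.1 per the submitters' processing notes); the array design names build mm9. The authors' value table is this deposited intensity divided by a number per array that is not stated.

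Of 56605 probes, 1234 were left out because on at least 1 array every spot was flagged as an outlier. For the other probes such spots were dropped and the remaining ones averaged. Probes were named through RefSeq transcripts (58.3% matched, 22911 symbols). The probe with the highest mean was kept per gene. Tests used limma 3.58.1 in R 4.3.3 over all 6 arrays, with 3 residual degrees of freedom, and were tested on simulated data. The precision is limited by 2 arrays per group. The arrays shared 1 slide and 1 scan.

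All 8 members, up to 6 genes of each list that passed, and the 5 nearest profiles of each bright member were named. Members and lists were chosen with earlier results of these data known. Alternatives changed the scale, background correction, filter, probe choice, blocks and arrays used.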

Additional observations from a re-analysis of the deposited data

How the results depend on the processing

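In the bright-gene fit between Irf4 KO IgG and WT the number of members called, 1 as reported, became 2 with scaling on the bright-gene median or with every bright probe, and 0 with the slide row as a block, with only the 4 arrays compared and with the replicate block; leaving out 1 array at a time gave 0 to 1. Over all bright genes 160 calls became 271 with the bright-gene median, 269 and 94 with a minimum log2 of 7 and 9, 246 with every probe, 23 with the replicate block, 88 with the slide row, 6 with the 4 arrays and 6 to 102 with 1 array left out. Over the all-gene fit 16639 calls became 3226 with normexp, 10597 without a filter, 9486 among genes detected on all 6 arrays and 6782 to 15139 with 1 array left out. With the replicate block, the adjusted p of Nrp1 was 0.0723 and with the slide row 0.0717. Deviations of same-numbered arrays had correlations of 0.02, -0.20 and 0.03 over the bright genes. Each group gives a single difference between its arrays, so these values cannot settle whether the numbers pair the arrays. In blockade against Irf4 KO IgG the count went from 0 to 1 with the bright-gene median, and in blockade against WT from 0 to 1 with the bright-gene median, cyclic loess and without WT array 1 (0 to 1 over all arrays left out). Nrp1 between blockade and Irf4 KO IgG turned to 0.083 with the bright-gene median, to 0.049 without Irf4 KO IgG array 2 and to 0.047 without blockade array 2 (-0.14 to 0.049 over arrays left out), and Izumo1r to 0.23.

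In the all-gene fit, 2 members called between Irf4 KO IgG and WT became 4 with detected probes as the scale (the median over those seen on all 6 arrays), 1 with normexp, 5 with the bright-gene median (chosen after seeing the data) and 1 to 3 with 1 array left out. The array median turned Foxp3 to -0.63, Nrp1 to -0.66, Entpd1 to -1.37 and Gpr83 to -0.92. Normexp turned Foxp3 to -0.037, Nt5e to 0.092, Entpd1 to -0.069 and Itgb8 to -0.12. Nt5e turned to 0.50 with detected probes, and with the bright-gene median to 0.76 and Izumo1r to 0.23. Over arrays left out, Entpd1 ran from -0.21 to 0.80 and Nt5e from -0.75 to 0.30.

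Between blockade and Irf4 KO IgG, 2 calls became 6 with the array median, 1 with detected probes or no filter, 0 with normexp and 0 to 3 with 1 array left out. The array median turned Lrrc32 to 1.59 and Gpr83 to 1.42; detected probes turned Foxp3 to -0.64, Nt5e to -0.13 and Entpd1 to -0.032; the bright-gene median turned them to -0.89, -0.38 and -0.29. Normexp turned Itgb8 to 0.29, and the deposited value table turned Foxp3 to -0.057. Over arrays left out, Foxp3 ran from -0.60 to 0.84, Lrrc32 from -1.05 to 0.65 and Gpr83 from -0.74 to 0.0070. Between blockade and WT, 0 calls became 1 with normexp, and over arrays left out Nt5e ran from -0.11 to 0.92 and Itgb8 from -0.20 to 0.67. The array median, the detected-probe median and the bright-gene median shift every gene of a comparison by the same amount. The array median lies below the lowest detected intensity on the WT and blockade arrays, so sign changes under it alone say little about a gene. The cause of the other changes was not tested. Where an array is left out, its partner is assumed to vary like the other groups. With 2 arrays per group, intervals on log2 differences span about the sizes reported, and members near background have bounds only.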

Other observations

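In the all-gene fit, where 31.5% of genes were called higher and 27.4% lower in Irf4 KO IgG than in WT, 5 of 19 tested regulatory T cell genes were called higher and 5 lower. Of anergy genes 1 of 19 was higher and 5 lower, of adenosine and ATP genes 3 and 8 of 17, of TGF-beta genes 2 and 8 of 16, of neuropilin ligands and partners 4 and 3 of 12, and of folate receptor, Izumo-named and peptide precursor genes 4 and 1 of 6. Between blockade and WT 0 of 28244 genes passed in that fit by limma, with 7.65% at an unadjusted p under 0.05, so no gene of these lists did.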
